A study of Homo sapiens with 6 samples.

Results

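Pseudogenes are copies of genes that no longer encode the protein of the gene they came from, and 953 of the 58735 genes counted in MDA-MB-231 breast cancer cells were annotated as processed or unprocessed pseudogenes and reached a mean of at least 0.5 FPKM (fragments scaled to gene length and to library size). Members were the entries with the biotype processed, transcribed processed, unprocessed or transcribed unprocessed pseudogene outside the mitochondrial chromosome, and 14203 entries carried these 4 biotypes at any level. The members comprised 592 processed, 63 transcribed processed, 119 unprocessed and 179 transcribed unprocessed pseudogenes. The last members inside the limit, GTF2IP12, AL589987.1 and C1DP1, had means of 0.5001, 0.5004 and 0.5004 FPKM, and the first outside it, ABCC6P1, PPIAP77 and EEF1A1P19, had 0.4997, 0.4995 and 0.4993.

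The libraries were made from oligo(dT)-selected RNA of MDA-MB-231 cells, an established triple-negative breast cancer line with mesenchymal features. 3 libraries came from cells with the empty vector, which the labels give as treated with DMSO, a solvent, and are called Vector. The other 3 came from cells labelled CB, with CB1, the cannabinoid receptor encoded by CNR1, as their treatment, and are called CB1. The study made its overexpressing lines by lentiviral transduction of a pCDH plasmid and described puromycin selection for its lentivirus-infected lines, so the groups are derived lines, and whether the CB1 cells also received DMSO was not given in the sources used here. The labels do not say whether the 3 libraries of a group were grown apart, and the p-values therefore cover the spread between these libraries alone, which may be technical. The comparison asked which pseudogene transcripts differed between cells with and without added CB1.

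Processed pseudogenes arise when a spliced mRNA is copied back into DNA by the reverse transcriptase of a LINE element and inserted elsewhere, so they usually lack introns and their own promoter. Unprocessed pseudogenes arise by duplication of a stretch of DNA and can keep the exons and introns of the parent. Highly expressed housekeeping genes, those for ribosomal proteins above all, left the most processed copies in the human genome. The prefix transcribed marks loci for which the annotation holds evidence of their own transcripts. Because copies resemble their parents, a short read from the parent mRNA can align as well or better to a copy, and a count at a pseudogene can hold reads of either.

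Each library held between 16957881 and 18833661 counts. CNR1 had 7, 6 and 4 counts in Vector and 6465, 7703 and 7353 in CB1, in the direction of the labels. Of 6 mesenchymal genes checked, VIM, CD44, AXL, CAV1 and ZEB1 each had over 1000 counts in all 6 libraries and SPARC had 52 to 92. Of these, 3 rose, and SPARC (-0.54) and ZEB1 (-0.84) fell. Of 5 receptor and epithelial genes, 3, the oestrogen receptor gene ESR1 among them, had at most 15 counts in any library, with 1 of these higher in every CB1 library. Of the other 2, which were tested, 0 rose and 1 fell. Within the CB1 group replicate 1 stood apart on the second principal component, at -20.2 against 10.4 and 13.8 for the other two. Of 10 genes of embryonic kidney and neural character, the origin of the producer cells in which lentivirus is packaged, 9 were higher in every CB1 library than in any Vector library, and 5 of the 5 tested passed the test. Their summed level was 56.9 to 57.7 CPM (counts scaled to library size) in Vector and 83.4 to 90.1 in CB1, most of it from a single gene. NEFL rose from 9, 3 and 6 counts to 97, 130 and 103, PAX2 had 2, 0 and 1 counts against 15, 8 and 11, and L1CAM did not separate the groups. CDKN2A, in a locus that MDA-MB-231 cells are known to lack, had 28, 9 and 33 counts in Vector and 469, 360 and 333 in CB1. These differences moved with the group, as did every pseudogene change given here, and their part in those changes was not tested.

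The sequences below set copies beside their parents, since the counts of the pairs are read together. Each stretch of 90 bases was chosen among coding stretches aligned without gaps as the one with the most differences over its copies. Other such stretches hold as many differences or fewer. They are transcript sequences of GENCODE 29 on GRCh38, written 5′ to 3′ along the transcript, and capitals mark bases that differ from the parent. RPSA encodes a protein of the small ribosomal subunit, which also serves as a laminin receptor, and is shown because its copies moved differently from each other. The stretch of 90 coding bases spans exons 5 and 6, with the intron left out, within chr3:39411764-39411971 on the plus strand. The copies are RPSAP58 at chr19:23827775-23827864 on the plus strand, with 1 difference, and RPSAP15 at chrX:87703528-87703617 on the minus strand, with 5.
RPSA: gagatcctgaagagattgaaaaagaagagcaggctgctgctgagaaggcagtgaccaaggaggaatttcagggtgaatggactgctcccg
RPSAP58: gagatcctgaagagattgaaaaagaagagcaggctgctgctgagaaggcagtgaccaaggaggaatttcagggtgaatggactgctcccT
RPSAP15: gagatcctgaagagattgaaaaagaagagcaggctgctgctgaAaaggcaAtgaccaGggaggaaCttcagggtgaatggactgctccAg

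EEF1A1 encodes the elongation factor that brings aminoacyl-tRNA to the ribosome. Its stretch lies in exon 3 at chr6:73519367-73519456 on the minus strand, and the copy EEF1A1P5, at chr9:133019690-133019779 on the plus strand, is shown because it fell while EEF1A1 did not pass the test.
EEF1A1: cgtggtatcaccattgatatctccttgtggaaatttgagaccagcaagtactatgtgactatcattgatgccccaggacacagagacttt
EEF1A1P5: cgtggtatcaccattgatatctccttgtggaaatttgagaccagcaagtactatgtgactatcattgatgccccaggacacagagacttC

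RPS27, a ribosomal protein gene, and its copies AC005912.1 and AC099560.2 are shown because they moved in opposite directions. The RPS27 stretch spans exons 2 and 3 within chr1:153991175-153991606 on the plus strand, AC005912.1 lies at chr12:3211762-3211851 on the minus strand and AC099560.2 at chr3:40761611-40761700 on the plus strand, each with 1 difference. Neither name gives a parent, and RPS27 was the coding transcript closest in sequence.
RPS27: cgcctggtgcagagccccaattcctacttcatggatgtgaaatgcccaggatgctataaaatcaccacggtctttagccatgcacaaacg
AC005912.1: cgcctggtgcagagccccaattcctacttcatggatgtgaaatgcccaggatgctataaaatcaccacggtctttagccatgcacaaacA
AC099560.2: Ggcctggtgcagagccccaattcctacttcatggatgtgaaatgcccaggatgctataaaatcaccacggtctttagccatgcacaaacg

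ASNS encodes asparagine synthetase. Its exon 4 at chr7:97869034-97869156 on the minus strand is copied in AC005326.1, a processed pseudogene of 123 bases that lies within the ASNS gene itself, on its other strand, at chr7:97870167-97870289, with 5 differences.
ASNS: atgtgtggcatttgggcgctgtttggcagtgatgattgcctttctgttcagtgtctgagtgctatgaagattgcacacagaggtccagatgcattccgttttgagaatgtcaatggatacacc
AC005326.1: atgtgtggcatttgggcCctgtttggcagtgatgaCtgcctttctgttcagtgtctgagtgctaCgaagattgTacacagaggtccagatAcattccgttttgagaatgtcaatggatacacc

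RPS28P7, the most abundant member per length, matched the coding part of the small-subunit gene RPS28 over 207 bases with 0 differences, so a single line serves for both. It lies on the plus strand at chr11:82689559-82689765, whereas the RPS28 stretch is split over exons 1 to 3.
RPS28P7: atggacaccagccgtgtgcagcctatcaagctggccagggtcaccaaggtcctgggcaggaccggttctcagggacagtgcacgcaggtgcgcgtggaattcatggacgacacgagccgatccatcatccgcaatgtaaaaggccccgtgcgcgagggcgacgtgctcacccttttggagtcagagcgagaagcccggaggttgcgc

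Of the 953 members, 152 were higher and 116 lower in CB1 cells at an adjusted p under 0.05 in edgeR's quasi-likelihood test, with p-values adjusted by the Benjamini-Hochberg method across the 15289 genes that reached the same level. That was 28.1% called, against 49.8% of all genes tested (24.4% higher and 25.4% lower) and 58.0% of protein-coding genes (27.7% higher and 30.3% lower). The remaining 685 did not pass. CPM of the groups did not overlap for 348 members, 197 higher and 151 lower in CB1, against 58.9% of all genes tested and 66.7% of protein-coding genes. The median log2 change was 0.10 over the members and -0.00 over all genes. Members were low genes, with a median of 26.2 counts per library against 667 for protein-coding genes, and the share called followed the counts. It was 13.8% of the 419 members with under 20 counts on average, 30.9% of the 311 with 20 to 100, 48.2% of the 199 with 100 to 1000 and 75.0% of the 24 with 1000 or more, against 27.6%, 41.9%, 57.8% and 62.9% of protein-coding genes in the same ranges. A fold change over 2 beside the adjusted p was reached by 104 members, 68 higher and 36 lower, or 10.9%, against 6.06% of all genes tested, and 40 of the 104 met the minimum level through 1 group only. Scaled by library totals alone, without the TMM factors that correct for composition, 125 members were higher and 139 lower, so which direction was in the majority depended on the scaling. Calls over all genes tested shifted the same way, from 3726 higher and 3881 lower to 3059 and 4675. That shift was therefore not particular to pseudogenes, and later counts without TMM factors are to be read beside it.

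Of the members, 791 reached 0.5 FPKM in both group means, 92 only through the CB1 mean and 70 only through the Vector mean. The last 2 sets had to lie on their own side and say nothing about the direction of pseudogenes. Among the 791, 123 rose and 100 fell, and 64 passed with a fold change over 2, 42 higher and 22 lower.

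The calls divided by biotype as follows. Of the 592 processed pseudogenes, 100 rose and 49 fell (median log2 change 0.15), and of the 63 transcribed processed pseudogenes 11 rose and 6 fell (0.11). Of the 119 unprocessed pseudogenes, 15 rose and 17 fell (0.07), and of the 179 transcribed unprocessed pseudogenes 26 rose and 44 fell (-0.02). The difference between biotypes was not tested. Without TMM factors the counts were 80 and 57 for processed, 11 and 10 for transcribed processed, 12 and 20 for unprocessed and 22 and 52 for transcribed unprocessed pseudogenes. Without CB1 replicate 1 the transcribed unprocessed pseudogenes gave 38 higher and 41 lower. The unprocessed pseudogenes gave 20 calls without Vector replicate 1 and 16 without Vector replicate 2, and the transcribed unprocessed ones gave 46 without Vector replicate 1. The numbers that fell among processed pseudogenes were 32 without Vector replicate 3 and 31 without CB1 replicate 2. The plot of log2 changes by biotype shows the spread.

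**Figure D1:**
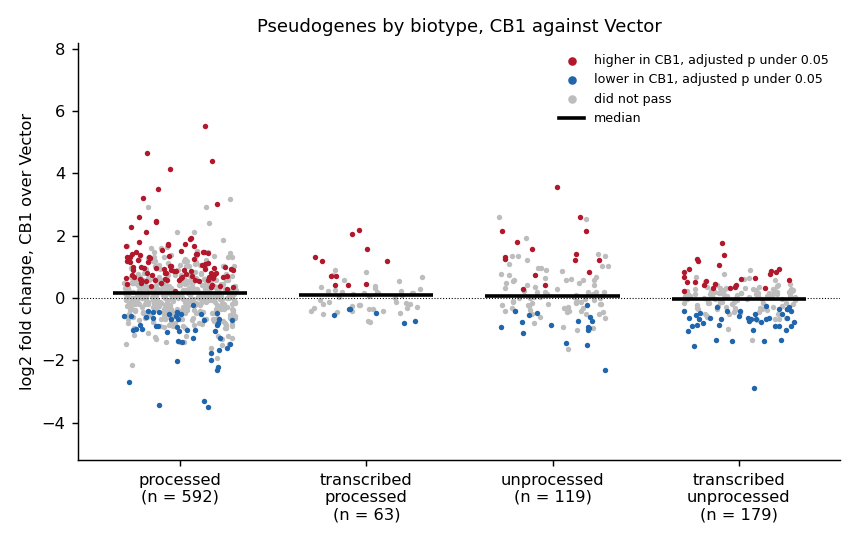
Log2 fold change, CB1 over Vector, of each of the 953 pseudogenes by biotype, with the median as a black bar. Red points passed adjusted p under 0.05 and were higher in CB1, blue points passed and were lower, and grey points did not pass. The medians lie between -0.02 and 0.15. Processed pseudogenes, 592 of the 953, hold 68 of the 104 points called with a fold change over 2, near their share of the members. Through 1 group only, 40 of the 104 met the minimum level.

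The members took a small part of each library, 0.673%, 0.683% and 0.682% of all counts in Vector and 0.716%, 0.692% and 0.697% in CB1. The groups did not overlap, at an exact two-sided permutation p of 0.1, the smallest that 3 against 3 libraries allow. Processed pseudogenes took 0.311%, 0.331% and 0.329% in Vector and 0.396%, 0.356% and 0.354% in CB1, also without overlap. The transcribed unprocessed pseudogenes were on the other side, with 0.175%, 0.162% and 0.164% in Vector and 0.128%, 0.148% and 0.154% in CB1. CB1 replicate 1 had the highest share of processed and the lowest share of unprocessed pseudogenes of all 6 libraries. The groups kept apart without it, as the plot of shares by library shows. The mean share of the ribosomal protein pseudogenes, described next, was higher in CB1 by 0.0580 percentage points. That exceeded the 0.0224 points of all members and the 0.0446 of processed pseudogenes. The members outside that family together therefore took a smaller share in CB1. In bulk RNA, fewer cells that express a gene and less of its RNA in each cell cannot be told apart.

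**Figure D2:**
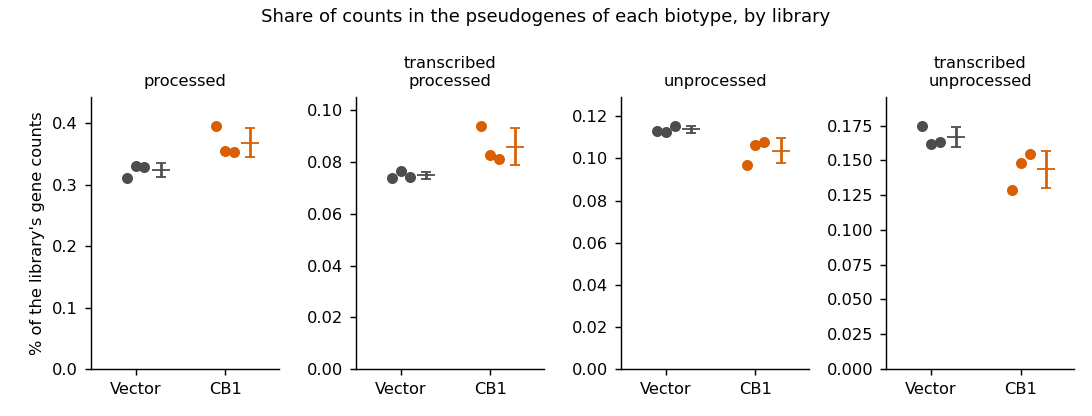
Percent of each library's gene counts that fell in the pseudogenes of each biotype, with 1 point per library and the mean with its SD (n = 3) beside the points. In all 4 panels the Vector and CB1 points do not overlap, CB1 being higher for processed and transcribed processed pseudogenes and lower for the other two, and the exact permutation p is 0.1 in each.

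Ribosomal protein pseudogenes were the largest family among the members. Of 102 members whose names gave a cytosolic ribosomal protein gene as parent, 33 rose and 8 fell, or 40.2%, and the other 61 missed the threshold. The share called was 28.1% over all members and 49.8% over all genes tested (24.4% higher and 25.4% lower). Their median log2 change was 0.30. Of their 53 parents tested, 28 rose and 3 fell (median 0.36), and over all 84 protein-coding genes of cytosolic ribosomal proteins 48 rose and 5 fell (0.38). Without TMM factors 30 of the pseudogenes rose and 9 fell, and without CB1 replicate 1 31 rose and 12 fell with a median of 0.19. The number that fell was 4 without any Vector library in turn and without CB1 replicate 3. As a share of counts, the family took 0.135%, 0.147% and 0.142% in Vector and 0.229%, 0.188% and 0.181% in CB1, with CB1 replicate 1 the highest.

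RPS2P5, a processed copy of the small-subunit gene RPS2 inside an intron of TAOK3, had the largest change of the abundant members, with 267, 330 and 329 counts in Vector and 1979, 1643 and 1533 in CB1. The log2 change was 2.48 (SE 0.13, edgeR adjusted p = 8.81e-08), and every CB1 library lay above every Vector library. RPS2P46 rose from 530, 611 and 686 counts to 1619, 1846 and 1494 (log2 change 1.44, SE 0.10, edgeR adjusted p = 1.06e-06). The parent RPS2 itself rose, from 20857, 21695 and 21474 counts to 51305, 45183 and 40360 (log2 change 1.10, SE 0.09). RPS2P5 counts were 1.28%, 1.52% and 1.53% of the RPS2 counts in Vector and 3.86%, 3.64% and 3.80% in CB1, without overlap (exact two-sided permutation p = 0.1, the smallest possible). For RPS2P46 the percentages overlapped between the groups, at 2.54 to 3.2 in Vector and 3.16 to 4.09 in CB1.

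The 7 copies of RPSA went apart. RPSAP58 rose from 407, 424 and 411 counts to 1469, 1461 and 1189 (log2 change 1.73, SE 0.10, edgeR adjusted p = 1.80e-07). RPSA itself rose from 14727, 16429 and 15692 counts to 37102, 32804 and 28819 (log2 change 1.08, SE 0.10). RPSAP12 and RPSAP19 passed with changes of 1.53 and 0.59. RPSAP15, 98.1% identical to RPSA, had 966, 1087 and 1192 counts in Vector and 1309, 1290 and 1077 in CB1, which overlapped (log2 change 0.18, SE 0.10, edgeR adjusted p = 0.169). Relative to RPSA it went from between 6.56% and 7.60% to between 3.53% and 3.93%. RPSAP47 fell by 0.52 on the log2 scale (SE 0.12, edgeR adjusted p = 0.00383), and its counts of 350, 442 and 498 in Vector lay above the 314, 294 and 291 in CB1. The other RPSA copies than RPSAP58, and the RPS27 copies further on, were chosen after their values were seen.

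The 3 copies of RPL13A, a large-subunit gene, also chosen after their values were seen, rose by 0.78 (RPL13AP5), 0.99 (RPL13AP25) and 1.51 (RPL13AP20) beside 0.46 for the parent. RPL13AP20 had 171, 141 and 129 counts in Vector against 438, 444 and 374 in CB1, with no overlap. RPS28P7 rose from 1521, 1811 and 1592 counts to 2817, 2700 and 2244 (log2 change 0.66, SE 0.10, edgeR adjusted p = 1.74e-04) beside an RPS28 change of 0.48, and its share of the RPS28 counts overlapped between the groups. RPL39P3, whose sequence equals that of RPL39 over its whole length, rose by 0.61 (SE 0.10, edgeR adjusted p = 2.59e-04), while RPL39 had a log2 change of -0.10 (adjusted p = 0.440). RPL9P9, the second most abundant member per length, had more counts than RPL9 in all 6 libraries, 5095, 5666 and 5385 in Vector and 8598, 7120 and 6447 in CB1 (log2 change 0.46, SE 0.11, edgeR adjusted p = 0.00328).

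Copies of 1 parent were not always called alike, as the plot of ribosomal protein pseudogenes beside their parents shows. Across all families, 84 parents had more than 1 member, 235 members in all, and for 41 of these parents at least 1 copy passed and at least 1 did not. A pass beside a miss was not tested as a difference between copies, and the share called followed the counts. For 6 of the 84 parents, GOLGA2, HMGN1, PPIA, RPL21, RPS7 and RPSA, copies were called in both directions.

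**Figure D3:**
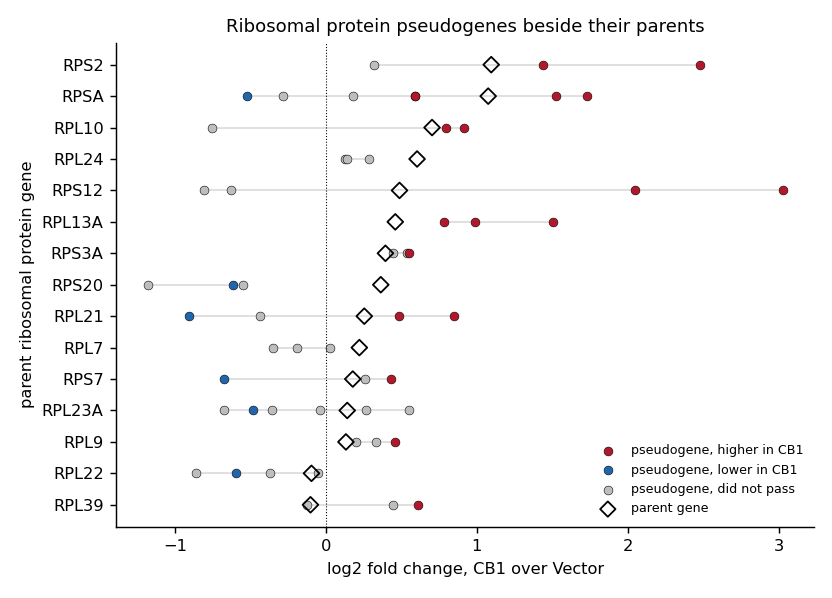
Log2 fold change, CB1 over Vector, of the 55 pseudogenes of the 15 ribosomal protein genes with at least 3 members each, with the parent's own change as an open diamond. Red circles passed and were higher, blue circles passed and were lower, grey circles did not pass; copies of RPSA run from -0.52 to 1.73 around a parent at 1.08, and those of RPS12 reach 3.03.

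Beyond the ribosome, the largest rises among members past the threshold with at least 1 FPKM in the higher group were at loci nearly silent in Vector. GGT4P, SH3GL1P2, DUXAP10 and the clone-named loci and HSPE1P27 given next were members only through their CB1 mean, so a rise was fixed by the choice of members, and their values are descriptions. GGT4P, an unprocessed copy related to the gamma-glutamyltransferase genes, which handle glutathione, had 4, 6 and 2 counts in Vector and 60, 48 and 38 in CB1 (log2 change 3.56, SE 0.40, edgeR adjusted p = 1.88e-05). The closest coding transcript, GGT1, was at -0.24 on the same scale (edgeR adjusted p = 0.0881). SH3GL1P2, a processed copy of the endophilin gene SH3GL1, had 2, 3 and 2 counts against 17, 26 and 25 (log2 change 3.21, SE 0.47, edgeR adjusted p = 1.41e-04), with SH3GL1 at 0.55. It is 90.2% identical to SH3GL1, and its count rose from at most 0.136% to at least 0.534% of the parent's.

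Several of these loci rested on very few counts. AC005476.1, closest to PDZD11, had 0, 0 and 1 counts against 3, 8 and 13, a ratio of 23.9 per effective library size with an exact 95% interval of 3.90 to 984 that covers counting error only. AC068631.3 had 1, 0 and 1 counts against 4, 18 and 5 (ratio 13.5, interval 3.38 to 117), and AC096720.1 had 1, 1 and 0 against 5, 4 and 5 (ratio 6.98, interval 1.6 to 63.3). AC068631.3 no longer passed without CB1 replicate 2, and AC096720.1 missed the threshold in 8 of 13 alternatives, among them each of the 6 left-out libraries.

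AC092032.1 was listed at 0 in all Vector libraries and at 6, 2 and 1 counts in CB1, 2.99-fold higher when set against a floor of 3 counts over the Vector group. Such a ratio to a floor leaves out counting error and is no lower bound. HSPE1P27, a copy of the chaperonin gene HSPE1, had 0 Vector counts and 9, 0 and 8 in CB1, 5.65-fold higher by the same floor, but CB1 replicate 2 was at 0 like the Vector libraries. Of the alternatives run, 7 of 12 for AC092032.1 and 8 of 13 for HSPE1P27 ended the call, among them each left-out Vector library.

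DUXAP10, a transcribed processed copy of the homeobox gene DUXA, rose from 49, 34 and 35 counts to 185, 183 and 175 (log2 change 2.19, SE 0.17, edgeR adjusted p = 1.73e-06), with tight groups and no overlap. Its exons share 232 bases with exons of another gene on the same strand. IKBKGP1, chosen after its values were seen and a member only through its CB1 mean, passed with a log2 change of 2.61 through a single library, with 7, 5 and 4 counts in Vector and 85, 6 and 7 in CB1. All its windows of 50 bases also occur in transcripts of other genes, IKBKG among them.

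**Figure D4:**
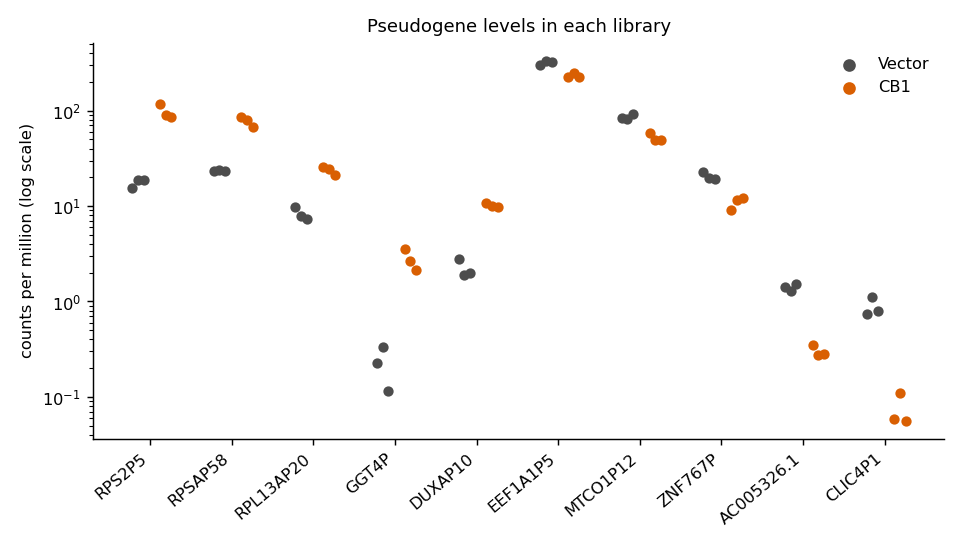
CPM, on a log axis, of 10 pseudogenes in each of the 3 Vector (grey) and 3 CB1 (orange) libraries, 1 point per library. The first 5 are higher in every CB1 library and the last 5 lower, from RPS2P5 (267 to 330 counts against 1533 to 1979) to CLIC4P1 (13 to 20 counts against 1 or 2).

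The largest falls were in part likewise at loci that were members only through their Vector mean, which fixed the direction: CLIC4P1, RHOT1P3, AC004024.1, MT1DP, AC009238.2 and AC233968.1. CLIC4P1, a copy of the chloride channel gene CLIC4 on chromosome 9, had 13, 20 and 14 counts in Vector and 1, 2 and 1 in CB1 (log2 change -3.44, SE 0.59, edgeR adjusted p = 4.20e-04). CLIC4 itself fell by 0.46 on the log2 scale, and the copy went from 0.188% to 0.269% of the parent's counts in Vector to 0.017% to 0.038% in CB1. RHOT1P3, a copy of the mitochondrial transport gene RHOT1, had 6, 7 and 10 counts against 1, 0 and 1, a CB1-to-Vector ratio of 0.0867 (interval 0.00991 to 0.351), and RHOT1 fell by 0.72.

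AC005326.1, the copy of an ASNS exon shown above, had 25, 23 and 27 counts in Vector and 6, 5 and 5 in CB1 (log2 change -2.21, SE 0.37, edgeR adjusted p = 3.78e-04). ASNS fell alongside, from 187, 156 and 161 counts to 42, 39 and 41 (log2 change -2.05, SE 0.16). No 50-base window of the copy occurs unchanged in an annotated transcript of another gene. Introns outside these transcripts and opposite strands were not searched, so reads of unspliced ASNS RNA are not covered. AC078817.1, closest to RPL26, fell from 29, 33 and 34 counts to 10, 12 and 2 (log2 change -1.99, SE 0.42, edgeR adjusted p = 0.00190), while RPL26 rose by 0.37.

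AC004024.1, closest to IER3IP1, had 6, 5 and 4 counts against 0, 0 and 1 (ratio 0.0665, interval 0.00158 to 0.432). MT1DP, a metallothionein pseudogene, had 3, 6 and 8 against 0, 2 and 0 (ratio 0.117, interval 0.0131 to 0.494), and AC009238.2 had 11, 18 and 7 against 0, 6 and 1. AC233968.1, closest to the aminopeptidase gene NPEPPS, had 13, 61 and 12 against 7, 5 and 5, so that Vector replicate 2 carried most of the difference, and it did not pass without that library or without CB1 replicate 2. AC009238.2 did not pass without Vector replicate 2 or CB1 replicate 3, AC004024.1 did not pass without Vector replicate 1 or CB1 replicate 2, and MT1DP missed in 5 of 14 alternatives.

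Among transcribed unprocessed pseudogenes, HSD17B7P2, a copy of a cholesterol synthesis gene, fell from 71, 60 and 66 counts to 27, 24 and 24 (log2 change -1.39, SE 0.21, edgeR adjusted p = 1.83e-04). HSD17B7 fell from 607, 574 and 632 counts to 324, 317 and 325 (log2 change -0.91, SE 0.09). KRT87P, a keratin pseudogene, had 39, 40 and 83 counts against 88, 100 and 204 (log2 change 1.27, SE 0.34, edgeR adjusted p = 0.00834), and the closest coding gene, the hair keratin gene KRT81, rose by 2.58. KRT87P did not pass with limma on log2 FPKM. STAG3L3 rose by 1.39 and STAG3L2 by 0.83, whereas STAG3L5P, another relative of the cohesin gene STAG3 and chosen after its values were seen, fell by 0.67 (SE 0.15, edgeR adjusted p = 0.00218). Among unprocessed pseudogenes CBWD4P fell from 63, 29 and 66 counts to 17, 22 and 17 (log2 change -1.50, SE 0.33), with 91.7% of its windows shared with other genes. Among transcribed processed ones AC010326.4, closest to UBE2C, rose by 1.58 (SE 0.29), and AC020904.2 fell by 0.81 (SE 0.31), a call that 10 of 15 alternatives ended.

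Copies of translation factors divided: of 18, 5 rose, 4 fell and 9 did not pass (median -0.03). In this and the families below, the share called ran from 6.25% to 83.3%. It was 28.1% over all members and 49.8% over all genes tested. EEF1A1P5 fell from 5217, 5947 and 5695 counts to 3823, 4561 and 4002 (log2 change -0.45, SE 0.07, edgeR adjusted p = 3.01e-04) with no overlap. EEF1A1 had between 154195 and 170852 counts in all 6 libraries (log2 change -0.01, adjusted p = 0.921), and the copy's share of them went from 3.33%, 3.51% and 3.47% to 2.24%, 2.80% and 2.60%. EIF4BP3, a copy of the initiation factor gene EIF4B, fell by 1.03 (SE 0.22) beside a parent at -0.08. EIF5AP4, a copy of EIF5A, rose by 0.93 (SE 0.12), and EIF5A rose by 0.61.

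The nuclear copies of mitochondrial genes on chromosome 1 were among the most abundant members per length, and they moved unequally. MTCO1P12, a copy of the cytochrome oxidase gene MT-CO1, fell from 1444, 1462 and 1631 counts to 988, 893 and 868 (log2 change -0.72, SE 0.09, edgeR adjusted p = 4.39e-05), and MT-CO1 fell by 0.20. MTATP6P1 had 5136, 5280 and 5617 counts against 5046, 4379 and 4245 (log2 change -0.23, SE 0.09, edgeR adjusted p = 0.0467), and MTND2P28 had 5567, 5777 and 5799 against 5417, 7872 and 7580 (log2 change 0.27, SE 0.10, edgeR adjusted p = 0.0397). Both overlapped between the groups, and 11 and 9 of 16 alternatives ended the calls. Their mitochondrial relatives MT-ATP6 and MT-ND2 rose by 0.37 and 0.33. MTND2P40 and MTATP6P27 lie in an intron of ZNF709 on chromosome 19 and share no window with an annotated transcript of another gene. They rose by 2.14 and 2.16 from counts of at most 7 to counts of 8 to 21. Both were members only through their CB1 mean, and MTATP6P27 did not pass without Vector replicate 3. In all, 3 of the 6 members of this list rose and 2 fell, and 2 and 2 without TMM factors. The 3 include MTND2P40 and MTATP6P27, whose direction was fixed by the choice of members, so the tally gives no direction for the list.

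Copies of metabolic genes were few. TPI1P1, a copy of the glycolytic gene TPI1, rose from 119, 177 and 135 counts to 293, 284 and 262 (log2 change 0.96, SE 0.14, edgeR adjusted p = 1.42e-04) beside TPI1 at 0.72, and it was the only one of 4 glycolytic copies to pass. Of 7 ferritin copies 2 passed, FTH1P8 (1.16, SE 0.43) and FTLP3 (1.42, SE 0.44), both higher, and neither passed without Vector replicate 1 or without CB1 replicate 1. The call of FTH1P8 also ended with DESeq2, without Vector replicate 2 and without Vector replicate 3, in all 5 of 16 alternatives. FTH1P2 had 18, 29 and 22 counts against 26, 27 and 25 (log2 change 0.17, edgeR adjusted p = 0.635), while FTH1, the iron-storage ferritin heavy chain gene, rose by 1.06. Of 16 copies of nuclear respiratory chain genes 1 passed, UQCRFS1P1, at -0.52 (SE 0.19), and 7 of 16 alternatives ended that call.

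Of 26 copies of chromatin protein genes 5 rose and 1 fell (median 0.18), and without TMM factors 3 rose and 2 fell. HMGB1P10 rose from 19, 22 and 19 counts to 45, 74 and 72 (log2 change 1.66, SE 0.25, edgeR adjusted p = 1.77e-04), and HMGB1P6 rose by 0.24, with HMGB1 itself at 0.01. HMGB1P6 did not pass without TMM factors, without Vector replicate 1 or without Vector replicate 3. H3F3AP4, identical in sequence to the histone gene H3F3A over its length, rose from 235, 258 and 237 counts to 314, 320 and 308 (log2 change 0.36, SE 0.09, edgeR adjusted p = 0.00654) while H3F3A had a change of 0.02.

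Of 6 cell cycle copies 3 rose and 0 fell. CKS1BP3, a copy of the cyclin-dependent kinase cofactor gene CKS1B, rose by 0.98 (SE 0.21) with CKS1B at 0.21. CDC37P1 (0.67, SE 0.26) did not pass in 11 of 16 alternatives. Of 18 copies of ubiquitin and proteasome genes 3 rose and 0 fell, and 3 and 3 without TMM factors. UBE2SP1 was the largest of them, from 20, 21 and 30 counts to 73, 101 and 59 (log2 change 1.70, SE 0.26, edgeR adjusted p = 1.73e-04), and its parent UBE2S, an enzyme that extends ubiquitin chains in mitosis, rose by 0.96. UBE2MP1 and PSMC1P1 rose by 1.21 and 0.73, and 5 of 16 alternatives ended the call of UBE2MP1, among them those without Vector replicate 2, Vector replicate 3 or CB1 replicate 1.

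Of 29 copies of RNA-binding and splicing genes 1 rose, 4 fell and 24 missed the threshold (median -0.05). SNRPEP4 fell by 0.72 (SE 0.19) and DDX12P by 0.40 (SE 0.09), and YBX1P1 rose by 0.81 (SE 0.22) as did YBX1, also by 0.81. Of 19 chaperone and cyclophilin copies 3 rose and 1 fell, and the PPIA copies were called both ways, PPIAP22 at -0.46 and PPIAP11 at 1.33. The call of PPIAP22 ended in 5 of 16 alternatives, among them those without Vector replicate 1, CB1 replicate 2 or CB1 replicate 3. Among 11 cytoskeletal copies KRT87P rose and ARPC3P1 fell (log2 change -1.05, SE 0.40), a call ended by 8 of 16 alternatives. TMSB4XP8, the copy of the actin-binding thymosin gene TMSB4X and among the most abundant members per length, had 752, 964 and 834 counts against 966, 905 and 942 and did not pass (log2 change 0.14, edgeR adjusted p = 0.244), while TMSB4X fell by 0.52.

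Of 14 zinc finger pseudogenes 1 rose and 6 fell (median -0.16), and 0 rose and 7 fell without TMM factors. ZNF767P fell from 397, 352 and 333 counts to 153, 209 and 215 (log2 change -0.91, SE 0.13, edgeR adjusted p = 8.63e-05), and ZNF37BP from 581, 530 and 535 to 285, 339 and 373 (log2 change -0.73, SE 0.10). ZNF37A, the closest coding gene to the latter, fell by 0.83, and ZNF252P fell by 0.47 (SE 0.11). The HLA class I pseudogenes HLA-H and HLA-L fell by 0.74 (SE 0.23) and 0.55 (SE 0.19). HLA-L counts overlapped between the groups, and its call ended in 5 of 16 alternatives, among them those without Vector replicate 1, Vector replicate 3 or CB1 replicate 3. That of HLA-H ended in 3, among them those without Vector replicate 3 or CB1 replicate 2. Of 70 members of segmental duplication families, 12 rose and 9 fell, and 9 rose and 10 fell without TMM factors, 18 and 8 without CB1 replicate 1.

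Of 17 pseudogene names listed for their place in the literature on gene copies, 7 were members. ANXA2P2 had 1007, 1111 and 1062 counts against 1286, 1094 and 1118 and PMS2P4 28, 38 and 32 against 50, 29 and 39, and neither passed (edgeR adjusted p = 0.243 and 0.430).

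For 466 members the name gave a parent in the tables, and for 450 of these the parent was tested, 299 parents in all. Of the 299, 105 rose and 60 fell, or 55.2%, against 58.0% of protein-coding genes. Without TMM factors 89 rose and 85 fell. Without CB1 replicate 1, 113 rose and 99 fell. Over the 450 pairs, copy and parent were both higher in 50 and both lower in 13, and they were called in opposite directions in 9. In 56 pairs the copy was called and the parent was not, and in 174 the parent alone was called.

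Changes of copy and parent lay closest in the pairs with the closest sequence. Of the 466, 461 members aligned to the named parent, with a median identity of 96.8%. In the 144 pairs with at least 98% identity the median absolute difference between the log2 changes of copy and parent was 0.31, and Pearson's r across pairs was 0.63. It was 0.51 with r = 0.35 in 141 pairs of 95% to 98%, 0.52 with r = 0.05 in 78 pairs of 90% to 95%, and 0.61 with r = 0.09 in 83 pairs under 90%. Counts rose along with identity, from a median of 11.5 to one of 75.6 per library, so low counts moved with the weaker likeness. Among members with a mean of at least 100 counts, r was 0.76 in 64 pairs at 98% or more and -0.01 in 43 pairs under 98%. The median absolute differences of these sets lay nearer each other, at 0.25 and 0.35. Their median counts still differed, at 359 and 216, so the part of the counts was not separated. Genes and libraries are shared between pairs, and r is given as a description. The plot of pseudogenes against their parents shows both classes.

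**Figure D5:**
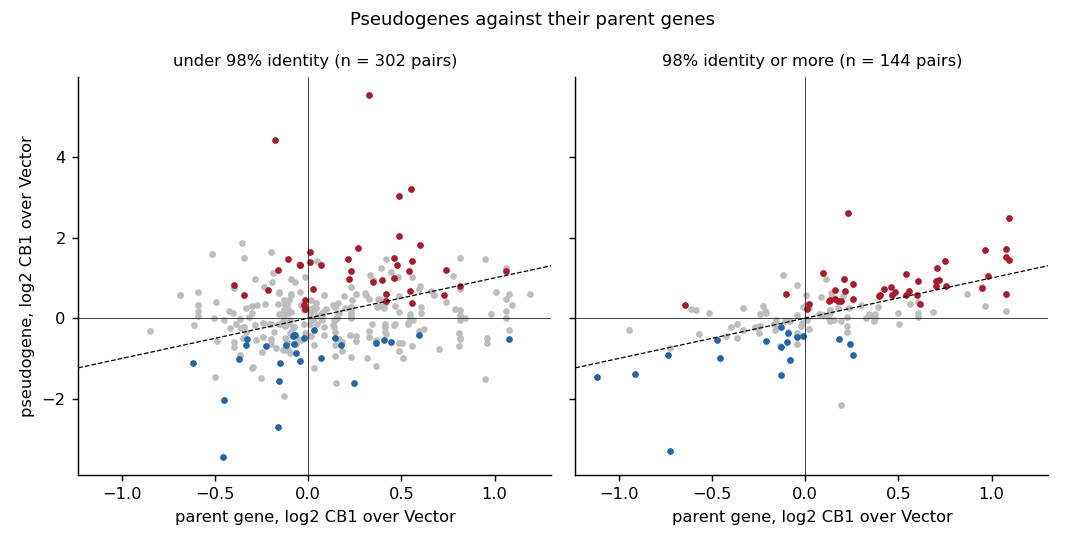
Log2 change of each pseudogene (vertical) against that of its named parent (horizontal), for 302 pairs under 98% sequence identity and 144 pairs at 98% or more, with the line of equality dashed. Red and blue points are pseudogenes called higher and lower in CB1, grey points were not called; the points lie nearer the line in the right panel, where r is 0.63.

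The ratio of copy to parent counts did not overlap between the groups in 173 of 450 pairs, or 38.4%, with 79 ratios higher and 94 lower in CB1. For plain CPM the groups did not overlap in 348 of the 953 members and in 58.9% of all genes tested. Each such ratio has an exact permutation p of 0.1, and no share over other pairs of genes was computed. The 9 opposite pairs, chosen after their values were seen, included NSUN5P1, which fell from 581, 594 and 552 counts to 434, 419 and 438 (log2 change -0.42, SE 0.08, edgeR adjusted p = 0.00116), while the rRNA methyltransferase gene NSUN5 rose from 634, 700 and 753 to 1159, 1078 and 917 (log2 change 0.59, SE 0.11). CA5BP1 went the other way, from 133, 121 and 137 counts to 227, 224 and 245 (log2 change 0.83, SE 0.12), while the mitochondrial carbonic anhydrase gene CA5B fell by 0.40. In LRRC37BP1 and DSTNP2 the copy also rose and the parent fell. In RPSAP47, RPS20P14, RPL32P3, VDAC1P8 and ENSAP2 the copy fell and the parent rose.

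A further 440 members carried names that give no parent but matched a coding transcript. The following were chosen after their values were seen. AC005912.1 rose from 472, 479 and 454 counts to 1056, 968 and 873 (log2 change 1.04, SE 0.10, edgeR adjusted p = 5.20e-06) and AC099560.2 from 64, 59 and 64 to 135, 122 and 121 (log2 change 1.01, SE 0.15), both copies of RPS27 printed above. RPS27 fell by 0.34 (SE 0.10, adjusted p = 0.0116), from 7071, 8282 and 8364 counts to 6969, 6082 and 5712. AC022149.1, identical over its whole length to the integrin gene ITGB1, fell by 0.48 (SE 0.07) and ITGB1 by 0.46.

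Some copies held more counts than the coding gene. This was so in all 6 libraries for 5 of the 450 named pairs and for 10 of the 87 members without a named parent that matched a coding transcript at 98% or more over at least 90% of their length. AC008038.1, closest to the elongation factor gene EEF1G, had 1737, 1947 and 2057 counts in Vector and 3726, 3671 and 3277 in CB1 (log2 change 0.89, SE 0.09, edgeR adjusted p = 6.85e-06), while EEF1G was listed at 0 in all 6 libraries. AC024293.1, 99.6% identical to RPS10, fell from 921, 906 and 842 counts to 757, 553 and 571 (log2 change -0.50, SE 0.13), and RPS10 rose from 22, 27 and 35 counts to 53, 54 and 57 (log2 change 0.96, SE 0.23). BX679664.3, closest to RPL17, fell by 0.68 and RPL17 rose by 0.44. The study's methods state that expression levels rested on uniquely mapped reads in exons, without naming the count tables. The part that the treatment of reads with several matching positions had in these counts was not tested.

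Read over windows of 50 bases, the members ran from wholly shared with annotated transcripts of other genes to not shared with any. Transcripts were searched along their own strand, and introns outside them and opposite strands were not. For 30 members every window also occurred in a transcript of another gene, and for 165 none did. The 67 members with at least 90% of windows shared held 9.42% to 10.02% of the members' counts per library, and 14 of them rose and 7 fell. Of the 165 with no shared window 18 rose and 10 fell, and they held 2.19% to 3.31% of the counts. RPS28P7, RPL39P3 and H3F3AP4, all abundant, were among those with every window shared, and EEF1A1P5 had 89.6% shared.

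Exons of 205 members overlapped exons of another gene, 96 on the same strand and 135 on the other. Without these, 112 members were higher and 87 lower of 748, or 26.6% called. The library kit named in the methods is the version that does not mark strand, so reads of partners on opposite strands cannot be told apart. A further description is position, since 313 members lay within a protein-coding gene. Of the 207 on the host's other strand 39 rose and 15 fell (26.1% called), and of the 106 on its strand 11 rose and 10 fell (19.8%). The share called was 28.1% over all members and 49.8% over all genes tested, and the difference between strands was not tested. Across 76 members on the strand of a tested host, without same-strand exon overlap, the log2 changes of member and host had r = 0.21, and across 164 on the other strand r = 0.06. Hosts and libraries are shared between these pairs, and the values are descriptions.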

How the data were processed

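Per the labels, the authors' processing named HISAT2 2.0.5 for alignment and featureCounts 1.5.0-p3 for counting. For each gene of 1 library the deposited tables hold a raw count and an FPKM value, and the authors computed FPKM from the count and the gene length. The methods describe poly(A) selection, a NEBNext Ultra library and expression levels from uniquely mapped exonic reads. Counting options for strand and multiply mapped reads were not given in the sources used here. The genome build was not named in the labels, and gene coordinates matched GENCODE 29 on GRCh38. Genes whose FPKM averaged 0.5 or more across all 6 libraries were tested with edgeR 4.0.16 (quasi-likelihood F-test, TMM, two-sided, Benjamini-Hochberg over all tested genes) in R 4.3.3. Totals of 16957881 to 18833661 counts per library limit the precision of members with few counts, and intervals (exact Clopper-Pearson on the summed counts) cover counting error only. Alternatives used limma 3.58.1 and DESeq2 1.42.0, other minimums and scalings, and each library left out. Parents were taken from the symbol with its P and number removed, and 0.5 counts were added to each gene before log ratios. Identity came from BLAST 2.17.0 against GENCODE protein-coding transcripts. Named members were the 8 largest changes in each direction, and 2 in each direction per biotype, among those past the threshold with no overlap between groups and at least 1 FPKM in the higher group. Without the conditions on overlap and level, up to 3 per family past the threshold with the smallest p were added, or the most abundant where 0 passed. The 6 most abundant members by FPKM and the members among 17 fixed names were added whether or not they passed. Members and lists were chosen with earlier results of these data known. The replicate numbers were not used to pair the libraries in the main test. The fitting code was tested on simulated data. Some members named by the rule are not reported here.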

Additional observations from a re-analysis of the deposited data

How the results depend on the processing

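Calls of single members rested on few counts and on 3 libraries a group. Of the 268 members called, 208 kept their call and direction with DESeq2, 241 with library totals in place of TMM factors and between 175 and 228 with 1 library left out, and no named gene reversed. Adding a fold change over 2 left 104 members, 68 higher and 36 lower. DESeq2 gave 32 processed and 4 ribosomal protein pseudogenes that fell. Library totals gave 10 transcribed processed pseudogenes that fell, and a minimum of 0.5 FPKM in the Vector mean gave 9 unprocessed ones that rose. With limma on log2(FPKM + 1) and log2(FPKM + 0.1), 11 and 9 unprocessed pseudogenes fell. The share of counts that the members took was higher in CB1 by 0.0224 percentage points, and by 0.246 percentage points as a share of summed FPKM. The count share of the ribosomal protein pseudogenes alone was higher by 0.0580 percentage points. The causes were not tested. The ribosomal protein pseudogenes were put through the alternatives after seeing the data.

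With each library left out in turn, 77 to 121 members fell, the lowest without Vector replicate 1, and 31 to 57 processed pseudogenes fell. For transcribed processed pseudogenes the number that fell ran from 3 to 7. For unprocessed pseudogenes the calls ran from 16 to 33, those that rose from 8 to 17 and those that fell from 8 to 16. For transcribed unprocessed pseudogenes they ran from 46 to 79, from 17 to 38 and from 28 to 42. Parents that fell ran from 42 to 99, and ribosomal protein pseudogenes that fell from 4 to 12. Counts of the other families were not recomputed for each left-out library; without CB1 replicate 1 the cytoskeletal copies that rose went from 1 to 2, the zinc finger ones from 1 to 0 and the respiratory chain ones from 0 to 1.

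Deviations of same-numbered libraries had r of -0.14, -0.08 and -0.03, which showed no pairing by replicate number. They were taken from means of 3 libraries, so they cannot show that no pairing existed. With the replicate number as a block, 240 members were called, 132 higher and 108 lower, and 233 of the 268 kept their call.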
